A study of Mus musculus with 8 samples.

Results

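The comparison described here set RNA bound to ribosomes with phosphorylated ribosomal protein S6 (pS6) against RNA of the whole lysate, in the lateral septum of naive mice. It took in 4 of the 8 libraries of the series, 2 naive pS6 IP libraries and 2 naive input libraries, and all gene symbols listed for them. Each file listed 24972 symbols, of which 26 had been turned into dates by a spreadsheet and were left out. Of the remaining 24946, 6181 were listed at 0 in all 4 naive libraries and 14365 reached 1 TPM (transcripts per 1000000 transcripts) in at least 2 of the 8 libraries and were tested.

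The naive groups came from C57Bl6J mice that stayed in the home cage. For the IP, ribosomes were pulled from septal lysate with 4 ug of polyclonal anti-pS6 antibody, and RNA kept back from the lysate served as input. Each replicate was a pool of septa from 4 to 6 mice, and no animal carried a transgene, so the capture was not restricted to a cell type. The study used mice of both sexes at 8 to 20 weeks of age; the sex and age of these pools are not stated in the sources used here. The restraint-stressed (RS) mice of the same strain, held in a cone for 1 h, gave 2 further IP and 2 further input libraries, which entered the fit and one comparison below.

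S6 is a protein of the small ribosomal subunit. In neurons, activity drives kinases of the mTOR and MAP kinase pathways that phosphorylate its tail, so that ribosomes carrying pS6 mark cells that have been active, and an antibody against pS6 brings down these ribosomes with their mRNAs. Without a stimulus some S6 is phosphorylated in many cells, and RNA that stays in the nucleus, such as many noncoding RNAs, has no place on ribosomes. The lateral septum is a limbic nucleus made mostly of GABAergic neurons, many of which also use neuropeptides, and it borders the lateral ventricle, the striatum and the medial septum.

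The 4 naive libraries were alike in complexity. Genes above 0 numbered 17422 to 17430 in the IP and 17353 to 17396 in the input, and genes of at least 1 TPM 13089 to 13090 in the IP and 13675 to 13720 in the input. The correlation of log2 values over genes, a description and no replicate test, had an r of 0.991 between the IP pools, 0.989 between the input pools and 0.953 between IP and input of each pool. With IP and input paired by replicate number, the change of IP over input had the same sign in both pools for 12664 genes (88.2%). Between the IP pools 101 genes differed by more than 2-fold. TPM carry no read number, so the depth is unknown, no counting interval can be given, and precision rests on the spread between 2 pools.

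In the limma fit, at an adjusted p under 0.05, 2504 genes (17.4% of those tested) were higher and 7061 genes (49.2%) were lower in naive IP than in naive input, 66.6% in either direction. At least 2-fold, 477 genes (3.32%) were higher and 1616 (11.2%) were lower. The log2 change of the median gene was -0.32. Median-of-ratios scaling of the libraries moved this median by 0.32, to about 0, and then 4432 genes (30.9%) were higher and 4117 (28.7%) lower. For this reason list medians are given below as log2 changes less that of the median gene. Counts of calls of lists in naive mice are followed by the count after scaling. Changes of single genes are on the TPM scale, as log2(TPM + 1).

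The change of a coding gene followed the length of its protein. Among 13346 genes with an annotated coding sequence, the decile with the shortest coding sequences (84 to 516 bases) had a median log2 change of 0.35, with 53.1% of genes higher and 16.6% lower in the IP. In the decile with the longest (3297 to 26397 bases) the median was -0.75, with 2.32% higher and 78.1% lower. The median fell in each step between, and Spearman's rho across genes was -0.45 for coding length, -0.44 for the length of the whole transcript, -0.28 for the 3′ untranslated region and 0.096 for GC content. These are descriptions across genes that share the same 4 libraries, and TPM were themselves divided by a transcript length that the authors chose.

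**Figure D1:**
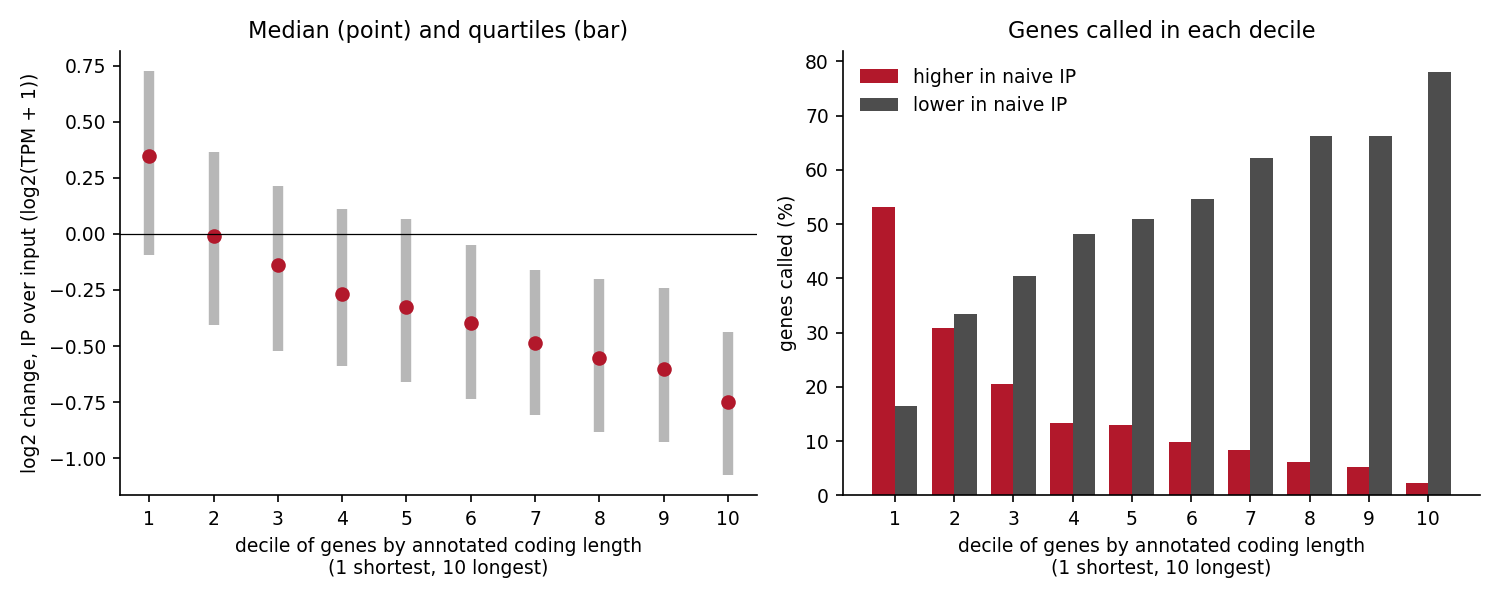
Change of 13346 coding genes in naive pS6 IP over naive input by decile of annotated coding length. The left panel plots the median log2 change (points) and quartiles (bars), and the right panel the percent of genes called higher (red) and lower (grey); the median is 0.35 in the shortest decile and -0.75 in the longest.

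The gradient also ran through the subunits of single machines, whose proteins are needed together. Across the 82 cytosolic ribosomal proteins rho between coding length and log2 change was -0.79, and it was -0.65 across 78 mitochondrial ribosomal proteins and -0.64 across 37 subunits of respiratory complex I. It was -0.85 across 35 subunits of complexes III and IV and ATP synthase, -0.54 across 37 proteasome subunits and -0.77 across 30 genes of ER translocation and glycosylation. Among chaperones, which are mostly large, it was 0.046 (25 genes). Among the genes of complexes III and IV and ATP synthase the shortest 11 were all higher, with a median log2 change of 1.15, and of the longest 11, 4 were higher and 4 lower (median -0.07).

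**Figure D2:**
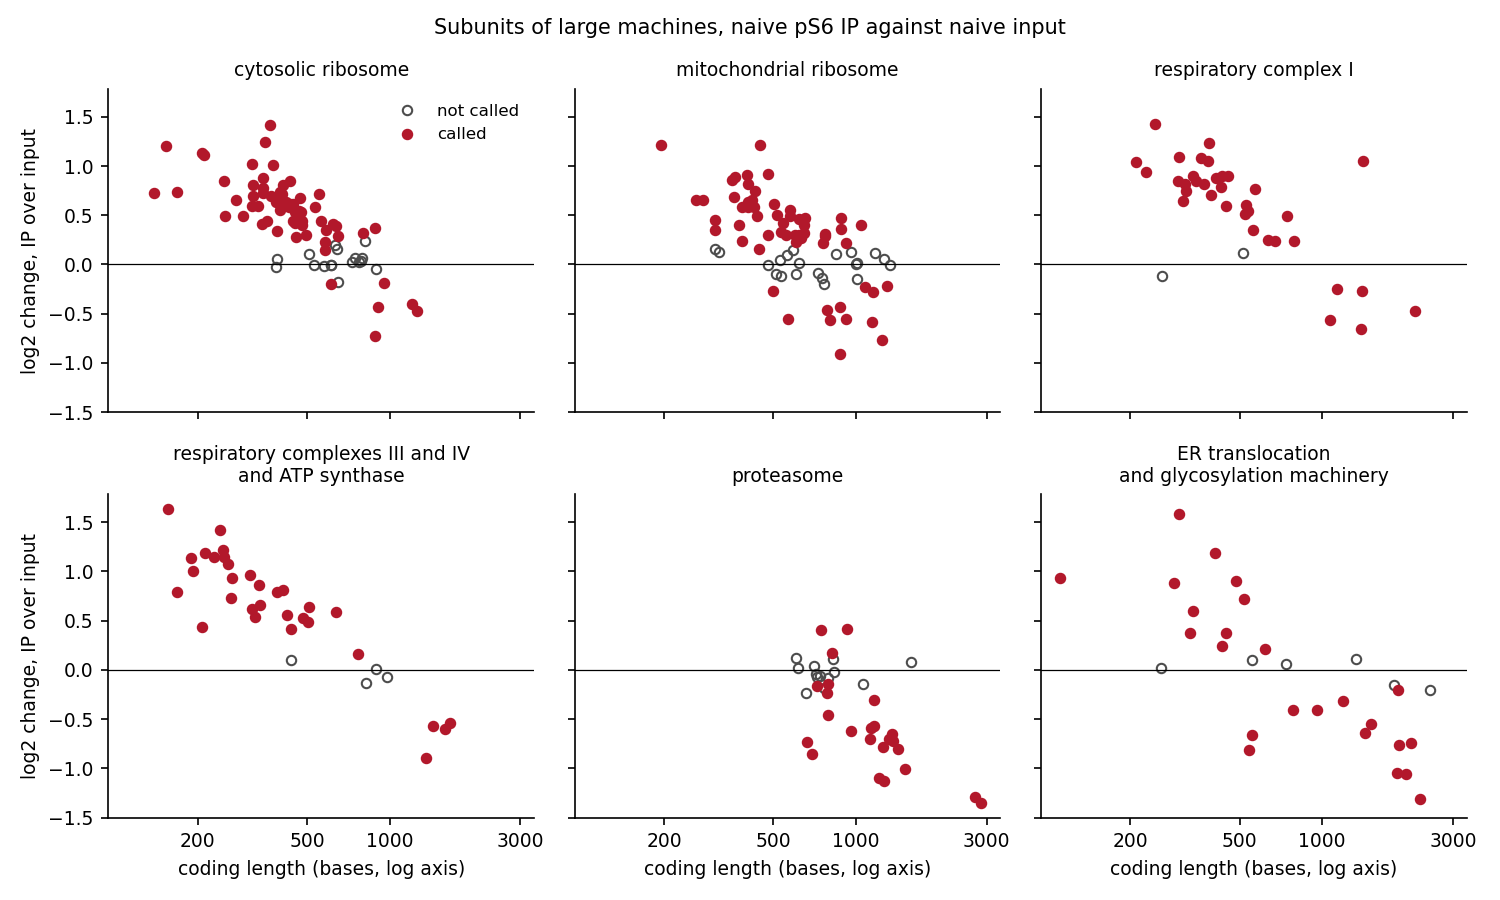
Log2 change in naive pS6 IP over naive input (vertical axis) against annotated coding length in bases (horizontal log axis) for subunits of 6 machines, filled where the gene was called. The shortest 10 ER genes have a median of 0.74, and the shortest 12 proteasome genes, which are longer, one of -0.07.

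Rps6 encodes S6 itself, the protein the antibody recognises (GRCm38 chromosome 4, 86854099 to 86857367, minus strand). It had 404 and 421 TPM in the naive IP and 400.1 and 387 in the naive input. The levels did not overlap but lay close together. The log2 change of 0.07 (SE 0.05) did not pass the test (adjusted p = 0.304), though after scaling it was 0.45 (adjusted p = 0.000677) and after a correction for length and GC -0.50 (adjusted p = 3.78e-05), so its direction rests on the scale used.

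Other proteins of the ribosome were mostly higher in the IP on the TPM scale. Of 33 small subunit genes 24 were higher and 2 lower (31 and 1 after scaling), with a median of 0.81, and of 49 large subunit genes 35 were higher and 4 lower (44 and 0), with a median of 0.76. After the length and GC correction, under which 14.2% of all genes were higher and 48.6% lower, 8 small subunit genes were higher and 11 lower (median 0.26), and 11 large subunit genes were higher and 17 lower (median 0.27). Ribosomal protein genes made up 1.53% and 1.54% (small) and 2.62% and 2.62% (large) of the TPM in naive IP, against 1.14% and 1.14% and 1.97% and 1.96% in naive input. Rpl22l1, a paralog of Rpl22, had a TPM of 465 and 507 in the IP and 176 and 186 in the input, a log2 change of 1.42 (SE 0.11, adjusted p = 2.4e-05). Rps25, which sits on the head of the small subunit, had 836 and 845 in the IP and 416 and 415 in the input, and Rpl34 had 274 and 265 in the IP and 111 and 114 in the input. Rps27l, a paralog of Rps27, had 106 and 109 against 51.1 and 53.7. The lower members included Rpl4, which had 686 and 690.2 in the IP and 955 and 957 in the input, Rpl3 1170.5 and 1161 against 1503 and 1569, and Rpsa 248 and 255 against 414 and 416. Rps2 had 220.4 and 221 in the IP and 290.3 and 305 in the input. Rpl3, Rpl4 and Rps2 were not called after scaling (log2 changes of -0.02, -0.09 and -0.05), whereas Rpsa was (-0.34). Within the shortest decile of coding genes, where 51 of these genes fall by length, the medians were 0.60 (22 small subunit genes) and 0.66 (29 large subunit genes), against 0.35 for all genes of the decile. Ribosomal protein genes have many processed copies in the genome, and how shared reads were counted is not stated in the sources used here.

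mRNAs of the translation machinery classically begin with a C and a run of pyrimidines, the TOP motif, through which mTOR signalling controls their translation. The annotated starts were therefore searched on the transcript strand for a C followed by at least 4 pyrimidines, beginning within 5 bases of the start. Of all 27025 genes with a start window 21.2% held such a run, against 30 of 61 ribosomal protein genes (49.2%) with a window. The 5 windows shown were chosen to set members with a run beside members without one; capitals mark the run, and each window (RefSeq, GRCm38.p6) holds 10 bases before the annotated start and 20 bases from it on.
Rps6, chr4:86857348-86857377, minus strand: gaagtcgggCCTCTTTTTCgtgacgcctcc
Rpl22l1, chr3:28805498-28805527, plus strand: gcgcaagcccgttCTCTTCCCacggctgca
Rps25, chr9:44407704-44407733, plus strand: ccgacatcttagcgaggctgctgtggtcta
Rpsa, chr9:120127756-120127785, plus strand: ttatttaaggacgtcatttccggccgcccg
Rpl4, chr9:64173377-64173406, plus strand: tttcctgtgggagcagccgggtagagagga
Rps6 and Rpl22l1 hold a run; Rps25, Rpsa and Rpl4 hold none in this window, and an annotated start may lie some bases from the true one. Ribosomal protein genes with a run had a median log2 change of 0.47 in the IP and those without one 0.50. With at least 7 pyrimidines asked for, 36.1% of ribosomal protein genes and 5.17% of all genes held a run, and the medians were the same.

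The other mRNAs of the TOP class did not share the direction of the ribosomal proteins. Of 21 tested, 3 were higher and 17 lower (4 and 7 after scaling), with a median of -0.16. Eif4b, an initiation factor that S6 kinase also phosphorylates, was lower at 30.6 and 35.0 TPM in the IP and 87.2 and 92.5 in the input (log2 change -1.43). Eef2, the translocation factor of elongation, had 189 and 176 in the IP and 347 and 358 in the input, and Eif3l, a subunit of initiation factor eIF3, 73.4 and 73.4 against 155 and 144. The 3 that were higher included the short mRNAs Tpt1, with 797 and 792 in the IP and 554 and 580.4 in the input, and Btf3, with 504 and 532 against 393 and 358. For Tpt1 and Btf3 the change was 0.04 and -0.02 once length and GC were corrected for, and neither was then called. The third, Naca, had 394 and 401 in the IP and 335 and 330 in the input. Its length was taken from the transcript with its longest annotated coding sequence, 6561 bases. Which of its transcripts was expressed here was not determined. The log2 change of Naca was 0.26. After the same correction, which rests on the length of that transcript, it was 0.68 (limma adjusted p = 9.63e-05).

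**Figure D3:**
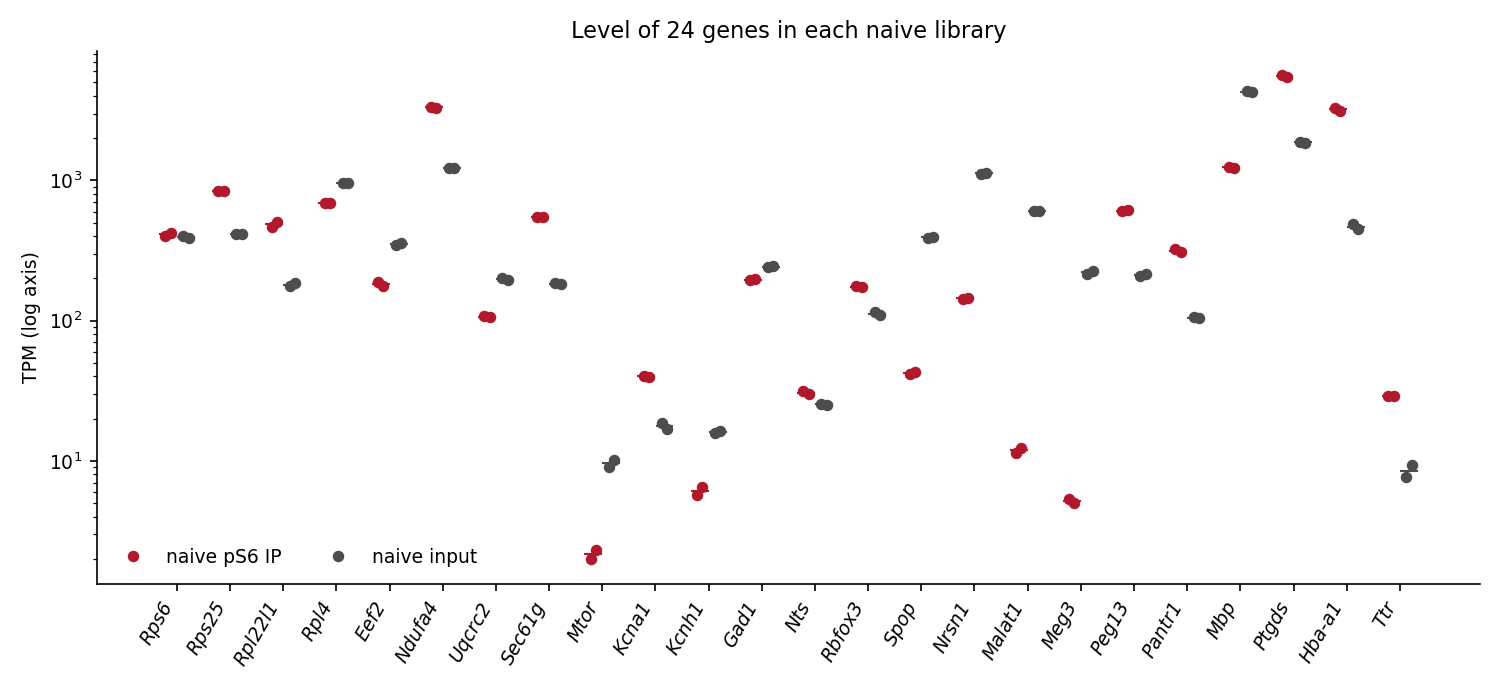
TPM (vertical log axis) of 24 genes in each naive library, pS6 IP in red and input in grey, with 2 pools (points) and their mean (line) for each. Rps6 has nearly equal levels, Rps25 lies higher in the IP and Rpl4 lower, and Malat1 and Meg3 lie furthest below their input.

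Among the lists with more genes higher than lower, nuclear-encoded genes of the respiratory chain and ATP synthase took the largest shares of TPM in naive IP. Complex I (NADH dehydrogenase) took 3.80% and 3.75% of the TPM in naive IP and 2.36% and 2.35% in naive input, and complexes III and IV with ATP synthase 5.95% and 5.93% against 3.76% and 3.73%. Of 38 complex I genes 31 were higher and 5 lower (33 and 2 after scaling; median 1.07), and of the 35 others 27 were higher and 4 lower (31 and 4; median 0.95). Ndufa4, a small subunit first assigned to complex I, had 3350.4 and 3297 TPM in the IP and 1234 and 1232 in the input. Cox7b of cytochrome oxidase had 1166 and 1202 in the IP and 432 and 451 in the input. Uqcrq, a small subunit of complex III, had 1164 and 1109 against 499 and 476, and Uqcrc2, a core subunit of the same complex, 107 and 106 against 203 and 195. Atp5b, the catalytic beta subunit of ATP synthase, was lower at 1764 and 1734 in the IP and 2625 and 2667 in the input, and Usmg5, a small accessory subunit outside the list, was higher at 6692 and 6749 against 2002 and 1982. Cox6c, a small subunit of cytochrome oxidase, had 2221 and 2206 in the IP and 1019.9 and 974 in the input. Ndufs5, a short subunit of complex I, had 1357 and 1374 against 825 and 805, and Ndufs1, its largest core subunit, 104 and 107 against 139.9 and 155, with no call after scaling. After the length and GC correction the medians were still 0.53 (complex I) and 0.39 (the others) above the median gene.

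Mitochondrial ribosomal proteins followed with 45 of 78 higher and 12 lower (64 and 3 after scaling; median 0.60); without naive input pool 2 the lower count was 7. Corrected for length and GC, 21 were higher and 30 lower (median 0.25). Mrpl20 had 449 and 428 TPM in the IP and 188 and 188 in the input, Mrpl55 479 and 497 against 259 and 259, and Mrps2, a longer member, 48.4 and 49.8 in the IP and 88.8 and 97.3 in the input. The proteasome stood apart from these machines, with 3 of 37 genes higher and 21 lower (16 and 16; median 0.08), or 0 and 32 once corrected (median -0.38). Psma7, a subunit of the core particle, had 958 and 951 in the IP and 728 and 710.1 in the input. Psmd2, the large scaffold of the regulatory particle, had 152 and 152 in the IP and 373 and 377 in the input, a log2 change of -1.29 (SE 0.04, adjusted p = 1.16e-06), and Psmd1, the other large scaffold, 62.6 and 63.3 against 158 and 167.

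Genes of ER translocation and glycosylation split, with 11 of 30 higher and 13 lower (17 and 8; median 0.25), or 6 and 18 once corrected. Sec61g, the smallest subunit of the Sec61 channel, had 548 and 551 TPM in the IP and 184 and 182 in the input, and Sec61b 284 and 308 against 159.5 and 160.3. Srp68 and Srp72, large proteins of the signal recognition particle, were lower, with 63.1 and 63.0 (Srp68) and 22.4 and 28.1 (Srp72) in the IP against 128 and 135 and 52.4 and 54.7 in the input. Chaperones were mostly lower, 21 of 26 (80.8%, against 49.2% of all genes) with 3 higher, or 11 and 4 after scaling (median -0.20). The higher count was 1 without either naive IP pool or naive input pool 2. Hspe1, the mitochondrial co-chaperonin, had 324 and 334 in the IP and 159 and 153 in the input, whereas Hsph1, a large cytosolic heat shock protein, had 72.5 and 80.03 against 174 and 187, and Cct8 of the cytosolic chaperonin 129.8 and 139 against 257 and 259.

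Of 24 genes of the kinases and regulators that act on S6, 3 were higher (12.5%, against 17.4% of all genes) and 15 lower (62.5%, against 49.2%), or 7 and 10 after scaling, with a median of -0.20. Mtor, the kinase upstream of S6 kinase, had 1.98 and 2.32 TPM in the IP and 9.12 and 10.1 in the input (log2 change -1.75, SE 0.12, adjusted p = 1.21e-05). Tsc2, its inhibitor through Rheb, had 9.26 and 9.68 against 25.7 and 27.8, and Pdpk1, which activates S6 kinase, 21.8 and 23.9 against 60.3 and 61.4. The 3 higher members were Map2k1, a kinase of the MAP kinase pathway, Rheb and Eif4ebp1. Rheb, the GTPase that activates mTOR, had 125 and 137 in the IP and 77.4 and 75.01 in the input, and Eif4ebp1, a repressor of cap-dependent initiation, 14.0 and 16.1 against 11 and 10.1. Among 9 mRNAs whose translation is known to be set by upstream reading frames, 1 was higher and 6 lower (2 and 3; median 0.01), with 0 higher when any 1 naive library was left out and 3 lower without naive IP pool 1. Eprs, a tRNA synthetase of this set, had 11.5 and 10.8 in the IP and 24.3 and 23.3 in the input.

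**Figure D4:**
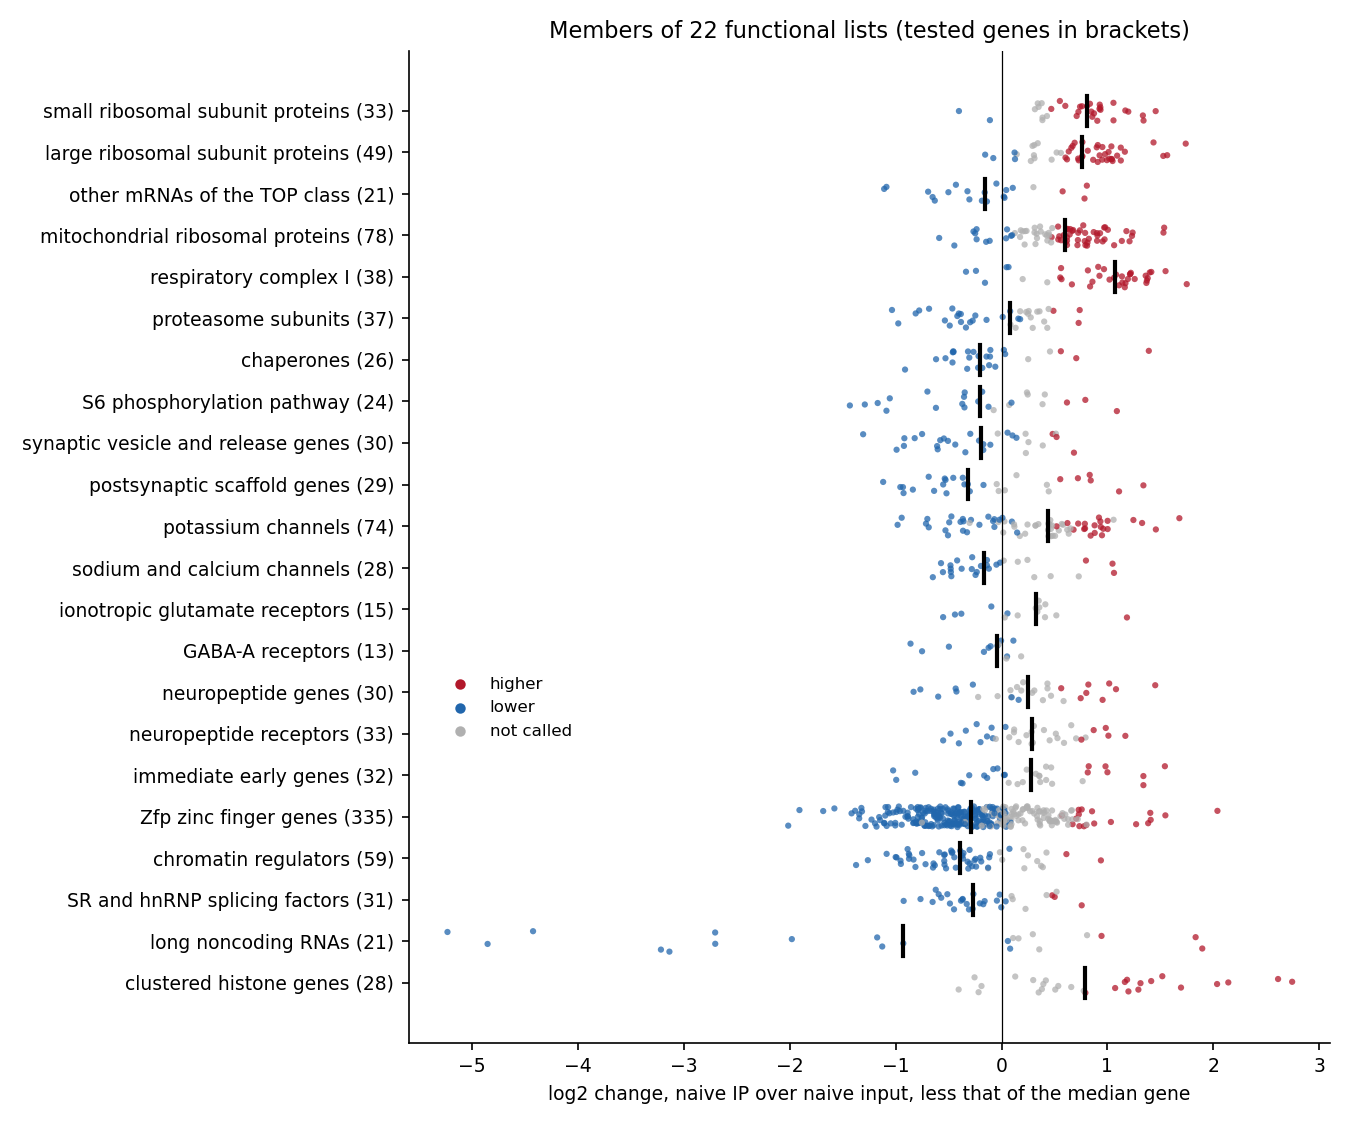
Members of 22 functional lists as points, at their log2 change in naive pS6 IP over naive input less that of the median gene (horizontal axis), coloured by call, with the list median as a black bar. Ribosomal protein and complex I medians lie between 0.76 and 1.07, and the median of the long noncoding RNA list lies at -0.93.

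Neuronal genes divided by class. Of 30 synaptic vesicle and release genes 21 were lower (70.0%, against 49.2% of all genes) and 3 higher (14 and 9 after scaling; median -0.19). Of 29 postsynaptic scaffold genes 17 were lower (58.6%) and 6 higher (20.7%, against 17.4% of all genes; 16 and 7 after scaling; median -0.32). Syt1, the calcium sensor of release, was higher at 239 and 239 TPM in the IP and 185 and 186 in the input, and Cplx1 at 1243 and 1238 against 1072 and 1088. Map1b and Map2, long cytoskeletal mRNAs of axons and dendrites, had 23.3 and 23.7 (Map1b) and 13.9 and 14.3 (Map2) in the IP against 65.8 and 64.8 and 36.3 and 34.8 in the input. Camk2b, a kinase subunit of the postsynapse, had 115 and 118 against 273 and 282. Homer1, a scaffold and activity-dependent gene, was higher at 14.6 and 16.7 against 8.00 and 6.42, and Nrgn, a small calmodulin-binding protein, at 389 and 385 against 269.8 and 268. Corrected for length and GC, the median of the scaffold list was 0.03, so its place below the median gene was not kept.

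Potassium channels lay above other genes of their length. Of 74 tested, 21 were higher and 24 lower (38 and 11 after scaling), against 17.4% and 49.2% of all genes, and their median was 0.44, or 0.46 after the length and GC correction. In the deciles 6 and 7 of coding length their medians were 0.24 (14 genes) and 0.56 (7 genes), while all genes of these deciles had -0.40 and -0.49. Kcna1, a Shaker-type delayed rectifier of axons, had 40.4 and 39.8 TPM in the IP and 18.5 and 16.9 in the input, a log2 change of 1.14 (SE 0.07, adjusted p = 1.07e-05). Kcnc1, the Kv3 channel of fast-spiking cells, had 16.4 and 17.2 against 6.27 and 5.60. Not all members shared this: Kcna3 had 2.09 and 2.23 in the IP and 6.38 and 7.21 in the input, and Kcnh1 5.75 and 6.50 against 15.8 and 16.4.

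Other channels and receptors were as follows. Of 28 sodium and calcium channel genes 3 were higher and 19 lower (5 and 9; median -0.17, or 0.12 after the length and GC correction). Scn2a and Scn8a, pore subunits with coding sequences in the longest decile, had 9.83 and 9.74 (Scn2a) and 4.87 and 4.83 (Scn8a) TPM in the IP against 18.8 and 18.7 and 10.1 and 10.7 in the input. Cacng3, a short auxiliary subunit, had 399.6 and 383 in the IP and 258 and 215 in the input. Among 15 ionotropic glutamate receptor genes 1 was higher and 5 lower (6 and 3; median 0.32, or 0.49 corrected), with 2 higher without naive input pool 2. Grik5, a kainate receptor subunit, had 15.97 and 15.5 in the IP and 8.22 and 8.17 in the input, and Gria1, an AMPA receptor subunit, 83.7 and 85.4 against 144 and 143. Of 13 GABA-A receptor genes none was higher and 10 were lower (76.9%, against 49.2% of all genes), or 0 and 3 after scaling. The lower count was 6 without naive IP pool 1 and 6 without either input pool. The median of this list was -0.04, or -0.006 after the length and GC correction, close to the median gene. Gabrb1, a beta subunit, had 25.6 and 29.2 in the IP and 59.1 and 67.7 in the input. Among 9 metabotropic glutamate and GABA-B receptor genes 0 were higher and 2 lower (4 and 0; median 0.11, or 0.40 corrected), 1 without any 1 naive library or either RS IP pool. In decile 9 of coding length the medians of these receptor lists were -0.17 (11 ionotropic genes) and -0.10 (7 metabotropic genes), while all genes of the decile had -0.60. Grm7 had 5.46 and 6.36 against 10 and 8.60, a change that was not called after scaling (-0.24).

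Lists of further membrane and transport genes were formed after their values had been seen and serve as description. Orphan receptors with Gpr symbols had 15 of 52 higher and 13 lower (24 and 3 after scaling; median 0.30). Solute carriers had 30 of 243 higher and 115 lower (70 and 46; median 0.03), close to all genes. Kinesins, motors with long coding sequences, had 2 of 22 higher and 17 lower (77.3%, against 49.2% of all genes). After scaling the kinesin counts were 2 and 15, and the median was -0.57. Centrosomal Cep genes had 1 of 28 higher and 23 lower (82.1%), or 2 and 14 after scaling (median -0.36). Rab GTPases, which direct vesicle traffic, had 13 of 54 higher and 24 lower (27 and 11; median 0.14), and claudins, connexins and tetraspanins 11 of 35 higher and 10 lower (16 and 6; median 0.27), 7 higher without naive IP pool 2. The lower count of the Gpr list was 8 without either naive IP pool or naive input pool 1. The higher kinesin count was 1 without naive IP pool 2, either naive input pool or either RS IP pool, and the higher Cep count was 0 without naive IP pool 2 or either naive input pool.

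Genes of nuclear proteins were more often lower. Of 335 Zfp zinc finger genes 18 were higher and 222 lower (66.3%, against 49.2% of all genes), or 46 and 138 after scaling. Of 59 chromatin regulators 2 were higher and 47 lower (79.7%), or 6 and 33 after scaling. Of 31 SR and hnRNP splicing factors 3 were higher and 23 lower (74.2%), or 6 and 13 after scaling. The medians were -0.29, -0.39 and -0.27 in this order. The higher splicing count was 1 without naive IP pool 2 or naive input pool 2. Zfp398 had 1.78 and 1.66 TPM in the IP and 10.6 and 9.29 in the input, and Zfp180 21.3 and 27.2 against 95.0 and 89.8. Zfp239 went the other way, with 236 and 224 in the IP and 68.7 and 69.6 in the input (log2 change 1.72, SE 0.08, adjusted p = 3.68e-06), and Zfp260 had 81.5 and 92.6 against 38.9 and 43.2. Kdm4b, a histone demethylase, had 6.58 and 7.37 against 19.97 and 20.2, and Smarcc2, a subunit of the BAF remodeller, 24.4 and 27.8 against 64.1 and 69.0. Smarca2, an ATPase of the same remodeller with a long coding sequence, was higher at 149 and 157 in the IP and 96.3 and 102 in the input. Srsf10, a splicing repressor, had 11.2 and 12.4 against 25.4 and 27.0, and Hnrnpab 102 and 112 against 79.9 and 77.5. Corrected for length and GC the chromatin median was -0.08, and it was -0.19 for the zinc finger genes and -0.20 for the splicing factors.

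Long noncoding RNAs spanned a wide range. Malat1, an RNA of nuclear speckles (GRCm38 chromosome 19, 5795690 to 5802672), had a TPM of 11.3 and 12.4 in the IP and 604 and 602 in the input, a log2 change of -5.55 (SE 0.08, adjusted p = 2.85e-08). Meg3, an imprinted nuclear RNA, had 5.32 and 5.03 against 217 and 227. Rian, from the same imprinted locus, had 0.65 and 1.04 against 19.7 and 18.6, Neat1, the scaffold of paraspeckles, 2.41 and 2.28 against 22.2 and 30.9, and Firre, an X-linked nuclear RNA, 1.15 and 1.35 against 11.1 and 14.0. Snhg11, a neuronal noncoding RNA, had 8.51 and 8.37 against 107 and 109.6. Cdr1, whose locus also gives an antisense circular RNA, had 1.36 and 2.30 in the IP and 74.8 and 72.8 in the input, and reads of the 2 strands cannot be told apart here. These 7 genes were named for the size of their decrease, so that IP and input did not overlap in them followed from the choice. Of the 21 genes of the list 3 were higher and 13 lower (6 and 11 after scaling; median -0.93).

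Other noncoding RNAs were captured. Peg13, an imprinted RNA (GRCm38 chromosome 15, 72805602 to 72810324), had 603 and 616 TPM in the IP and 209.6 and 216 in the input (log2 change 1.51, SE 0.04, adjusted p = 4.1e-07). Pantr1, transcribed beside the neuronal factor Pou3f3, had 325 and 307 against 106 and 105, and Sox2ot, which overlaps Sox2, had 67.2 and 74.3 against 45.5 and 45.4. Over all 812 genes that RefSeq types as lncRNA, 300 (36.9%) were higher and 117 (14.4%) lower in the IP (420 and 54 after scaling), against 17.4% and 49.2% of all genes, with a median of 0.62. Protein-coding genes had 2167 of 13352 higher and 6900 lower, with a median of -0.03. As shares of TPM, lncRNA took 1.10% and 1.11% of naive IP and 0.909% and 0.909% of naive input. Clone-type names make up much of this class, and whether their reads come from overlapping genes was not tested.

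Small nucleolar and Cajal body RNAs had 0 of 9 tested genes higher and 4 lower (0 and 4 after scaling), with a median of -2.08. The share lower was 44.4%, against 49.2% of all genes. Of the 119 listed, 102 were at 0 in all 4 naive libraries. AF357425, a small nucleolar RNA on chromosome 12, was listed at 0 in both IP pools and at 36.7 and 17.8 TPM in the input. Host genes of small nucleolar RNAs, spliced RNAs exported to the cytoplasm, had 5 of 19 higher and 4 lower (9 and 0; median 0.63, but 0.098 corrected for length and GC, with 4 higher and 3 lower of 17), with 1 lower without naive IP pool 1 or naive input pool 1, 2 lower without naive input pool 2, and 8 higher without either RS input pool. Snhg3 had 88.5 and 94.6 in the IP and 43.1 and 29.0 in the input, and Snhg5 30.4 and 35.0 against 14.8 and 16.2. Snhg11, a host gene by its symbol, was counted among the long noncoding RNAs and not in this list. Its log2 change was -3.54, below that of every member here (lowest Snhg7, -0.69). Among clustered histone genes, short mRNAs without a poly(A) tail, 14 of 28 were higher and 0 lower (16 and 0; median 0.78), or 8 and 2 once corrected for length and GC (median 0.37); 8 of the list were at 0 throughout, and 1 or 2 were lower when either naive IP pool, naive input pool 1 or either RS IP pool was left out. Hist1h2ao had 45.9 and 49.2 in the IP and 9.01 and 8.80 in the input, and Hist1h4d 159.8 and 154 against 74.4 and 71.6; near-identical copies share reads. In all, 4 genes were at 0 in both inputs and at 5 TPM or more in both IP libraries, and 8 the reverse.

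A few coding genes stood far below their input at high levels. Nrsn1, a membrane protein of neuronal vesicles, had 143 and 146 TPM in the IP and 1119.8 and 1134 in the input (log2 change -2.95, SE 0.05, adjusted p = 3.51e-08). Spop, the adaptor of a ubiquitin ligase (GRCm38 chromosome 11, 95414083 to 95493410), had 41.7 and 42.7 against 390.3 and 398. Rapgef4, an exchange factor activated by cAMP, had 14.4 and 14.3 against 102 and 107, and Lime1, a membrane adaptor of immune cells, 3.16 and 2.97 against 34.6 and 33.4. Their coding sequences are not all long, with 588 bases in Nrsn1, 807 in Lime1, 1122 in Spop and 3033 in Rapgef4. At the other end Krt10, a keratin, had 52.8 and 49.4 in the IP and 8.22 and 7.27 in the input, Plvap, of fenestrated endothelium, 33.0 and 34.3 against 6.39 and 7.75, and Amd1, of polyamine synthesis, 30.0 and 22.4 against 5.03 and 4.86. R74862, a long noncoding RNA, had 47.1 and 43.3 against 8.93 and 8.49. The most abundant gene of the IP was Ubb (polyubiquitin), with 8580.0 and 8557 in the IP and 10997 and 10997 in the input, lower on the TPM scale and at 0.02 after scaling (adjusted p = 0.635). Tmsb4x, an actin-binding peptide, had 6892 and 6841 against 3208 and 3152, Atp5k, an ATP synthase subunit, 6123 and 6233 against 2758 and 2654, and Eif1, a start-codon factor, 5956 and 5952 against 3143 and 3077.

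Immediate early genes, which neurons induce within minutes of activity, showed no common direction in unstressed mice. Of 32 tested, 7 were higher and 12 lower (14 and 5 after scaling; median 0.28). Fos had 24.4 and 28.8 TPM in the IP and 35.3 and 33.3 in the input, a log2 change of -0.36 (SE 0.09, adjusted p = 0.00617) that was 0.01 after scaling (adjusted p = 0.904). Arc, a synaptic activity gene, had 49.9 and 46.7 against 82.7 and 76.1, and Btg2 13.2 and 14.5 against 36.3 and 35.5. Jun, the partner of Fos in AP-1, was higher at 35.2 and 32.5 in the IP and 12.6 and 15.4 in the input, and Gadd45b, a stress-response gene, at 30.6 and 30.6 against 14.1 and 15.1. The summed level of the list was 0.055% and 0.056% of the TPM in naive IP and 0.060% and 0.060% in naive input.

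Neuropeptide genes were divided in equal numbers, 8 of 30 higher and 8 lower (14 and 5; median 0.25), or 3 and 16 once corrected for length and GC (median -0.20); 5 were higher without naive input pool 1. Sst (somatostatin) had 839.9 and 815 TPM in the IP and 529 and 536 in the input, Penk (proenkephalin) 1859 and 1817 against 1373 and 1359, Cartpt 237 and 226 against 167 and 159, and Crh, the stress peptide, 10.4 and 9.14 against 5.19 and 5.50. Nts (neurotensin) had 31.4 and 29.8 in the IP and 25.6 and 24.9 in the input, without overlap, and missed the threshold (log2 change 0.27, SE 0.11, adjusted p = 0.0564), which it passed after scaling (0.64, adjusted p = 0.00191), with the naive libraries alone (adjusted p = 0.0217), with a minimum of 5 TPM (0.0468) and without RS IP pool 1 (0.0213) or 2 (0.0208). Oxt (oxytocin) was lower at 26.2 and 24.7 against 53.0 and 45.3, and Scg2, a granin of dense-core vesicles, at 139.6 and 145 against 249 and 230.4. Most peptide precursors are short, and in the shortest decile of coding genes the 18 that fall there had a median of 0.02, below the 0.35 of that decile; after the length and GC correction Sst was at 0.03, Cartpt at -0.08 and Nts at -0.27. Neuropeptide receptors had 5 of 33 higher and 10 lower (12 and 3; median 0.28, or 0.38 corrected); 2 were higher without naive IP pool 2, and 6 lower without naive input pool 2. Ntsr2, a neurotensin receptor also found on astrocytes, had 105 and 106 in the IP and 67.0 and 63.2 in the input, and Sort1, a sorting receptor that binds neurotensin, 8.55 and 8.00 against 14.8 and 15.5.

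General markers of GABAergic neurons were present. Gad1 and Gad2, which make GABA, had 196 and 197 (Gad1) and 33.6 and 35.7 (Gad2) TPM in the IP against 241 and 244 and 58.4 and 59.8 in the input; both were lower, but Gad1 stood at 0.08 after scaling. Slc32a1, the vesicular GABA transporter, had 7.10 and 7.79 in the IP and 7.17 and 6.66 in the input and did not pass the test (log2 change 0.09, adjusted p = 0.523), but was called after scaling (0.43, adjusted p = 0.0185). Of 15 genes of lateral septal GABAergic neurons 2 were higher and 3 lower (9 and 1 after scaling; median 0.41), 1 higher without either naive IP pool or naive input pool 1. Rbfox3, the NeuN gene of mature neurons, had 176 and 174 in the IP and 115 and 109.7 in the input, while the pan-neuronal list had 3 of 18 genes higher and 12 lower (4 and 6; median -0.09). Each input was kept back from the lysate of its IP, so both fractions came from the same cells. Whether a lower value in the IP reflects a lower share of ribosomes with pS6 was not tested.

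**Figure D5:**
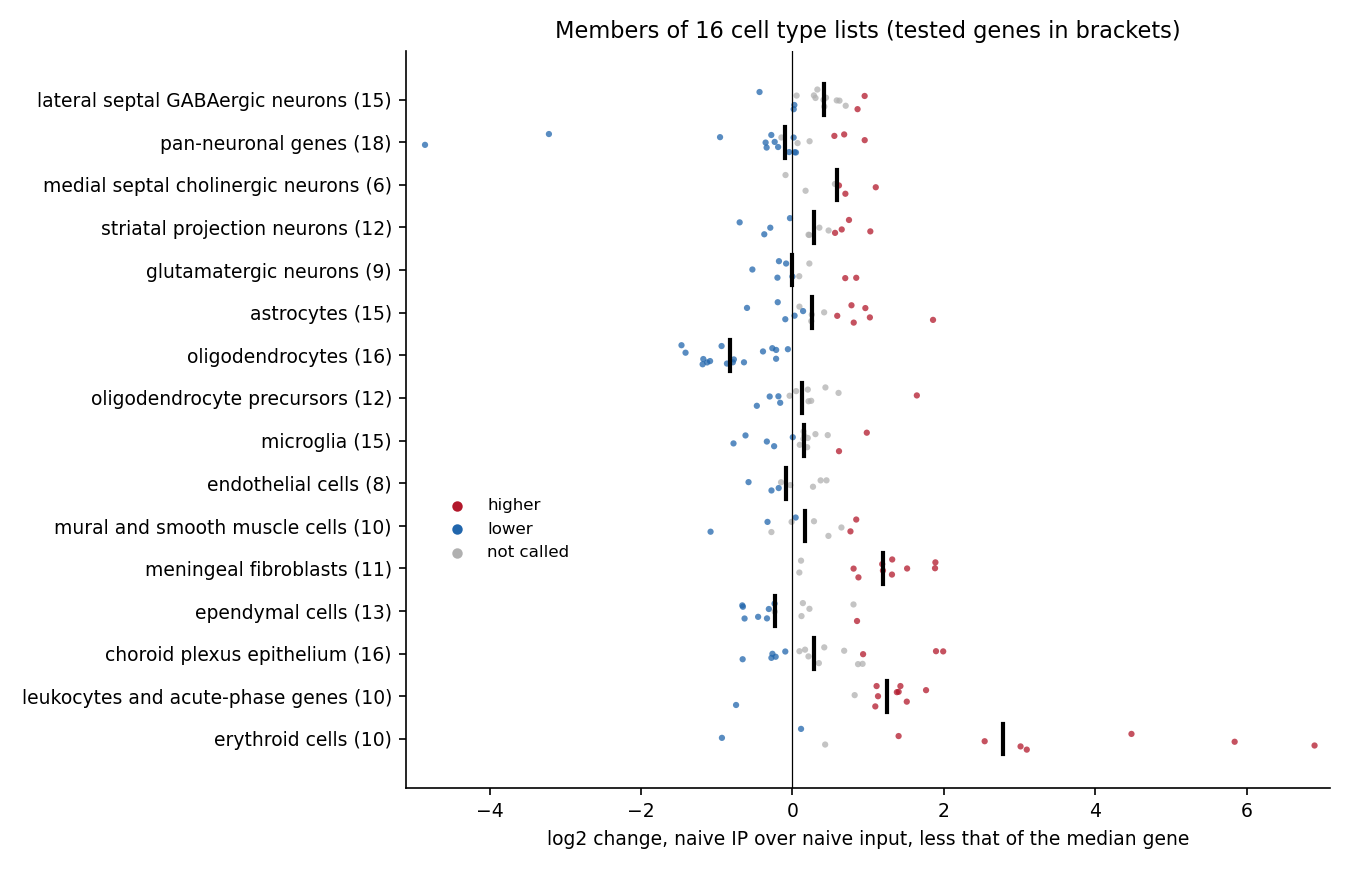
Members of 16 cell type lists as points, at their log2 change in naive pS6 IP over naive input less that of the median gene (horizontal axis), coloured by call, with list medians as black bars. All 16 oligodendrocyte genes are lower, with a median of -0.83, and the medians of meningeal, leukocyte and erythroid genes are 1.20, 1.26 and 2.78.

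Genes that mark neurons of neighbouring regions were detected, and whether such neurons were in the dissection was not tested. Striatal projection neuron genes took 0.476% and 0.473% of the TPM in naive IP and 0.379% and 0.382% in naive input, with 4 of 12 higher and 4 lower (7 and 3; median 0.29). Ppp1r1b (DARPP-32), a signalling protein of these cells, had 2203 and 2143 TPM in the IP and 1697 and 1755 in the input, Bcl11b, their transcription factor, 20 and 19.5 against 12.2 and 11.1, and Rgs9, a striatal regulator of G proteins, 43.3 and 41.2 against 87.0 and 86.0. Of 6 genes of medial septal cholinergic neurons 3 were higher and 0 lower (4 and 0; median 0.59), 1 higher without naive IP pool 1 or naive input pool 1, and 1 lower without naive IP pool 2. Slc18a3, which loads acetylcholine into vesicles, had 11.5 and 11.8 in the IP and 5.93 and 6.81 in the input, and Chat, the enzyme that makes it, 11.2 and 14.7 against 14.3 and 14.4, which did not pass the test (adjusted p = 0.344) except without naive IP pool 2 (log2 change -0.33, adjusted p = 0.049). Glutamatergic genes had 2 of 9 higher and 5 lower (3 and 1; median -0.00), with 3 lower without either naive IP pool or naive input pool 2 and 1 higher without naive IP pool 2 or naive input pool 1. Slc17a7, a vesicular glutamate transporter, had 92.4 and 93.6 in the IP and 123 and 124 in the input, and stood at -0.02 after scaling.

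Myelin RNA was lower throughout. All 16 oligodendrocyte genes were lower (13 after scaling, none higher), with a median of -0.83 and of -0.87 after the length and GC correction, and they summed to 0.304% and 0.298% of the TPM in naive IP and 0.782% and 0.777% in naive input. Mbp, of the myelin sheath, had 1256 and 1233 TPM in the IP and 4328 and 4253 in the input, a log2 change of -1.79 (SE 0.04, adjusted p = 2.47e-07). Mog, on the surface of myelin, had 70.9 and 65.7 against 197 and 195, and Mobp 279 and 266 against 622 and 618. Car2, a carbonic anhydrase that the erythroid list also holds and oligodendrocytes express, had 88.9 and 93.9 against 222 and 216. Genes of oligodendrocyte precursors had 1 of 12 higher and 4 lower (4 and 2; median 0.13), 2 higher without either RS input pool. Bmp4, of newly committed cells, had 4.35 and 4.75 in the IP and 1.72 and 0.804 in the input, and Olig1, a factor of the whole lineage, 52.4 and 53.8 against 74.7 and 76.8, not called after scaling (-0.13).

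Astrocyte genes were split, 6 of 15 higher and 5 lower (10 and 1; median 0.26), with 3 lower without either naive input pool. Gjb6 (connexin 30), of astrocyte gap junctions, had 45.2 and 50.0 TPM in the IP and 16.6 and 14.9 in the input, Slc1a3, a glutamate transporter, 166 and 169 against 100.4 and 105, and Gfap, the intermediate filament, 64.4 and 68.0 against 132 and 121. Microglial genes had 2 of 15 higher and 5 lower (4 and 2; median 0.15), or 0 and 12 once corrected (median -0.077), with 1 higher without naive IP pool 1 and 3 lower without naive IP pool 2 or naive input pool 1. Tyrobp, a short signalling adaptor, had 59.1 and 66.1 in the IP and 37.7 and 40.6 in the input, and Cx3cr1, the fractalkine receptor, 6.89 and 5.96 against 14.9 and 14.8. Endothelial genes had 0 of 8 higher and 3 lower (1 and 1). Cldn5, of the blood-brain barrier, had 3.90 and 3.28 against 4.99 and 2.74 and did not pass the test (adjusted p = 0.87), and Esam, an endothelial adhesion molecule, had 3.76 and 4.72 against 9 and 8.48. Mural genes had 2 of 10 higher and 3 lower (4 and 2; median 0.16), with Tagln, of smooth muscle, at 36.0 and 34.3 in the IP and 26.2 and 22.2 in the input, and Rgs5, of pericytes, at 0.388 and 1.15 against 3.25 and 3.89.

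Genes of meninges and blood rose most among the cell type lists. The meningeal fibroblast list had 9 of 11 genes higher and 0 lower (9 and 0; median 1.20), and they summed to 0.581% and 0.561% of the TPM in naive IP and 0.196% and 0.195% in naive input, while 3 defining collagen and transcription factor genes of the list were below 1 TPM throughout. Most of this sum was Ptgds, a prostaglandin synthase of the meninges that other brain cells also express, with 5655 and 5477 TPM in the IP and 1883 and 1865 in the input (log2 change 1.57, SE 0.04, adjusted p = 2.95e-07). Mgp, a matrix protein, had 33.5 and 33.4 against 17.4 and 15.2. Erythroid genes had 7 of 10 higher and 2 lower (9 and 1) and summed to 0.666% and 0.649% in naive IP and 0.192% and 0.190% in naive input. Hba-a1 had 3284 and 3142 TPM in the IP and 486 and 450.1 in the input, and Hbb-b1 1708 and 1775 against 268 and 267. Hbb-bs was listed at 126 and 71.3 in the IP and at 0 in both inputs, Hbb-bt at 250 and 224 against 0 and 25.6, and Hba-a2 at 58.3 and 51.9 against 0 and 8.80; these globin genes share reads, so the split between copies is uncertain. Slc4a1 and Epb42, which define red cell membranes, were below 1 TPM in all 4 libraries. Leukocyte and acute-phase genes had 8 of 10 higher and 1 lower (8 and 1), or 2 and 1 once corrected (median 0.63), 5 higher without naive input pool 2, at a summed 0.00242% and 0.00262% of TPM in naive IP and 0.00133% and 0.000884% in naive input, with 8 of the 18 genes below 1 TPM throughout. The part of carried-over blood or meninges in these results was not tested.

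Of the ventricular lining, ependymal genes were lower in 7 of 13 cases (53.8%, against 49.2% of all genes) and higher in 1 (3 and 2 after scaling; median -0.24), with 2 higher without either RS input pool. Corrected for length and GC, 11 were lower and 0 higher (median -0.79). Foxj1, the master factor of motile cilia, had 1.61 and 1.60 TPM in the IP and 3.37 and 3.52 in the input, and Tekt1, of the ciliary axoneme, 8.13 and 10.6 against 16.2 and 22.7. Choroid plexus genes had 3 of 16 higher and 5 lower (4 and 0; median 0.28), with 2 lower without naive input pool 1 and 5 higher without either RS input pool. Ttr, a defining transport protein of the choroid plexus, had 29.0 and 29.1 in the IP and 7.62 and 9.32 in the input, and Slc13a4, a sulfate transporter of choroid plexus and meninges, 20.99 and 23.7 against 6.13 and 7.54. Enpp2, also made by oligodendrocytes, had 63.0 and 62.7 against 97.1 and 87.0, not called after scaling (-0.16). The list summed to 0.0152% and 0.0150% of the TPM in naive IP and 0.0164% and 0.0151% in naive input, and 6 of its 17 genes were below 1 TPM throughout.

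The same contrast in RS mice allowed a test of whether baseline capture differed from that after restraint. The change of IP over input differed between RS and naive mice for 970 of 14365 genes (6.75%). It was larger on the log2 scale in RS mice for 473 and smaller for 497. The counts of this comparison are on the TPM scale, without median-of-ratios scaling. On that scale the median gene stood at -0.42 in RS mice and -0.32 in naive mice. With the pool as a block 78 genes were called, 77 of them among the 970, so this count depends on how the spread was estimated. All 60 of the 82 cytosolic ribosomal protein genes among the 970 had a larger value in RS mice (8 with the block), and their median log2 change was 1.14 in RS mice and 0.47 in naive mice. Small subunit genes summed to 14785 and 14827 TPM in RS IP and 15314 and 15387 in naive IP, and to 6102 and 7533 in RS input and 11353 and 11366 in naive input. The sums differed more between the RS and naive inputs than between the RS and naive IP. Of 38 complex I genes 18 were among the 970, all larger in RS mice (0 with the block), and of the 35 genes of complexes III and IV and ATP synthase 23 (2 with the block).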

How the data were processed

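RNA from anti-pS6 immunoprecipitates and from input lysate was sequenced on the HiSeq2500 after SMARTer amplification. The authors deposited 1 column of normalized expression per library. The columns are named as FPKM, but each sums to 1000000, so the values were read as TPM (transcripts per 1000000 transcripts), as the authors deposited them. The labels name STAR and build mm10, and the methods TopHat and Cufflinks; which tool made the columns, how shared reads were counted and whether strand was used is not given in the sources used here. TPM divide by transcript length, and whether that length was corrected for fragment size is also not given.

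Values were transformed as log2(TPM + 1), and genes of at least 1 TPM in at least 2 of the 8 libraries were fitted in limma 3.58.1 (R 4.3.3) with all 4 groups, so that the spread was shared, with Benjamini-Hochberg adjustment. A call is an adjusted p under 0.05, and every adjusted p in the text is from limma. The labels speak of separate pools and the paper's methods of triplicates, while 2 pools per group were analysed here. The p-values measure the spread between libraries of different pools, and not that between single mice. Each input was kept back from the lysate of its IP, so libraries of equal number were taken as pairs. The deviations of paired libraries correlated with r of -0.064 (naive) and -0.046 (RS), so the values themselves did not show this pairing. The script was tested on simulated data. Alternatives were another pseudocount (0.1), other filters, median-of-ratios scaling, the replicate block, a spline correction for transcript length and GC, the naive libraries alone, and each library left out. Lengths came from GENCODE M21, for each gene from the transcript with the longest coding sequence, which need not be the one expressed. Coordinates, gene types and start windows came from RefSeq (GRCm38.p6).

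The members and 44 gene lists were chosen with earlier results of these data known, and 6 further lists after the values were seen. Genes were named by rule: genes of the study's question, the 12 largest called changes in each direction at a mean of at least 5 TPM, the 6 most abundant IP genes, up to 3 called members per list and direction by moderated statistic, and defining markers; a part of these is shown. The globin copies, the small nucleolar RNA listed at 0 and the genes named as background are exceptions, chosen after their values were seen. Some genes of the lists are not reported by name here.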

Additional observations from a re-analysis of the deposited data

Results flagged for a closer look

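The change of IP over input differed between RS and naive mice, by limma's test of the difference at an adjusted p under 0.05, for 42 of the 143 genes followed, with a larger value in RS mice for 31 and a smaller one for 11. Only Cartpt, Rps27l, Rps2, Cox6c, Gadd45b, Tagln and Ttr, 7 genes, were also called with the pool as a block. Values are differences of log2 changes, RS minus naive, on the TPM scale.

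Among peptide and activity genes the difference was 1.11 for Nts, 0.882 for Cartpt, 0.392 for Sst and -0.297 for Penk, and 0.836 for Fos, 0.973 for Gadd45b and 0.682 for Btg2. For ribosomal proteins it was 0.337 for Rps6, 0.419 for Rps25, 0.866 for Rps27l, 0.626 for Rpsa, 0.672 for Rps2, 0.862 for Rpl22l1, 0.319 for Rpl4 and 0.543 for Rpl3, and it was 0.447 for Tpt1 and 0.526 for Mrpl20. For the respiratory chain it was 0.539 for Ndufa4, 0.299 for Ndufs5, 0.65 for Cox7b, 0.777 for Cox6c, 0.494 for Uqcrq and 0.72 for Usmg5. It was 0.591 for Sec61g, 0.481 for Sec61b, 0.498 for Hspe1 and 0.324 for Tmsb4x.

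Among neuronal genes the difference was -0.427 for Syt1, -0.437 for Ppp1r1b, -0.518 for Slc17a7, -0.401 for Rbfox3, -0.439 for Nrsn1 and -0.438 for Rapgef4. It was 0.462 for Snhg11, -0.371 for Peg13, -1.54 for Amd1, -0.598 for Hist1h2ao and -0.904 for Cx3cr1. For genes of vessels, meninges and choroid plexus it was 1.12 for Tagln, 0.967 for Mgp, 0.432 for Enpp2 and 1.16 for Ttr. Choroid plexus genes summed to 2342 and 2355 TPM in RS IP and 152 and 150.5 in naive IP, and to 539 and 591 in RS input and 164 and 151 in naive input. Their part in the differences was not tested.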

How the results depend on the processing

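Of the 143 genes followed through 16 alternatives 138 were called, and 120 kept their direction and their side of the threshold in all 16. They were named largely for a large change or statistic in the same fit, so this stability does not describe genes at large. Leaving out 1 library gave 2095 to 2578 genes higher and 6128 to 7057 lower, and 477 to 510 higher and 1614 to 1706 lower by at least 2-fold. Median-of-ratios scaling gave 4432 higher and 4117 lower, 1181 and 513 by at least 2-fold, and turned the log2 change of Fos to 0.012, Gad1 to 0.079, Ubb to 0.023, Chat to 0.21 and Cldn5 to 0.25. A pseudocount of 0.1 gave 2541 genes lower by at least 2-fold. The replicate block, with the pool number as a term, gave 78 genes for the difference between RS and naive mice and changed no naive call among the 143 genes. The correction for length and GC, alone or with the replicate block, gave -0.50 for Rps6, -0.27 for Nts, -0.084 for Cartpt, -0.022 for Btf3 and -0.14 for Psma7. It moved list medians to -0.38 (proteasome), -0.066 (ER), 0.033 (postsynaptic scaffold), 0.12 (sodium and calcium channels), -0.20 (neuropeptides) and -0.077 (microglia). With no filter on low values the medians were -0.083 (proteasome), -0.056 (metabotropic receptors), -0.038 (oligodendrocyte precursors), -0.016 (microglia) and -0.027 (solute carriers). With 1 library left out Chat ranged from -0.33 to 0.036, Cldn5 from -0.39 to 0.29 and the endothelial median from -0.18 to 0.021. Asking for 7 pyrimidines lowered the share of tested genes with a run from 23.7% to 5.98%. The causes were not tested. The depth is unknown, and 2 pools per group limit the precision of genes of a few TPM most.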
